A study of Mus musculus with 16 samples.

Results

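Neat1, Malat1 and 7 proteins of the paraspeckle were examined in mouse preSC, cultured precancerous cells of small cell lung cancer. The 9 genes were taken by symbol from the 17655 genes listed for every sample, and all 9 were expressed highly enough to be tested. Both groups of cells share a genotype. They are Chga-positive neuroendocrine cells of the lung that are null for Rb1 and Trp53 and heterozygous null for Rbl2. The "empty" group was infected with an empty control lentivirus and the "Wnt5a" group with a lentivirus carrying Wnt5a, a secreted Wnt ligand. Doxycycline at 1 µg/mL was given to both groups for 48 hours before harvest, and the labels do not say what it induces. Messenger RNA was selected with oligo-dT from 500 ng of total RNA. Each group has 8 deposited samples, but samples 1 to 4 of a group differed by hardly more than counting noise, as did samples 5 to 8. They were therefore averaged into library A and library B, so that n = 2 libraries per group. The labels do not say whether libraries came from separate cultures, so every p-value measures only the spread between these libraries, which may be technical. The 9 genes were chosen for study with the higher Neat1 level of the Wnt5a cells already known. Their differences between the groups are therefore given as a description, with standard errors and no p-values, and how many of them were called is stated only beside the share of all genes called.

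Paraspeckles are bodies of the nucleus built on Neat1, a long noncoding RNA. Neat1 is made as a short and a long isoform from one start site, and only the long isoform can assemble paraspeckles. SFPQ and NONO bind the long isoform as it is made and keep it stable, PSPC1 is their close relative, and RBM14 and HNRNPK are also needed for assembly. The cleavage factor of NUDT21 and CPSF6 favours polyadenylation of the short isoform, and HNRNPK counters it. Malat1 is the gene next to Neat1, and its RNA is a component of nuclear speckles, which store splicing factors.

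Because the libraries were selected on poly(A), the ends of the transcripts bear on what the Neat1 and Malat1 values count. The last 60 bases of each annotated transcript are printed 5′ to 3′ on the transcript's strand from GENCODE M21 (GRCm38, chromosome 19). Capitals mark AATAAA, the common signal for cleavage and polyadenylation.
Neat1-202, short isoform: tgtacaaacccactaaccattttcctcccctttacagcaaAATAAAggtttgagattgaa
Neat1-201, long isoform: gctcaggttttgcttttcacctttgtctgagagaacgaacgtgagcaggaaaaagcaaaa
Malat1-201: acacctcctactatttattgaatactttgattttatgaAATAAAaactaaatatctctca
Within these last 60 bases, the short Neat1 isoform holds 1 AATAAA, 14 bases before its end. The annotated Malat1 transcript holds 1 there, 16 bases before its end. The last 60 bases of the long Neat1 isoform hold 0. The same letters, searched on the transcript strand only, occurred in the last 60 bases of 41.1% of 58781 protein-coding transcripts and 31.1% of 9100 lincRNA transcripts. The short isoform is annotated with 3004 bases, and all 3004 lie within the single exon of the long one, which has 20771. The annotation splices 166 bases out of the short form, which ends at base 3172 of the long one. The deposited values give 1 number per gene, and the share of each isoform was not measured. Oligo-dT selection favours transcripts with a poly(A) tail, and the mature ends of long Neat1 and of Malat1 are known to be formed without one.

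The samples held 7526676 to 8859862 reads, and the libraries 30220749 to 35315408. Values are normalised read counts, in which 1 read is worth 0.934 to 1.11. Wnt5a itself was 90.4 to 174 in the 8 empty samples and 1032 to 1560 in the 8 Wnt5a samples, as the labels require. Among all 12357 genes tested, limma called 254 (2.06%) at an adjusted p under 0.05, 171 of them higher and 83 lower in Wnt5a cells. This count was 493 without empty library A, 1098 without empty library B, 166 without Wnt5a library A and 138 without Wnt5a library B. The median difference of all genes was 0.00 on the log2 scale, and 50.7% of genes were higher. Of 11 neuroendocrine markers all were expressed, with a summed value of 59119 to 61046 in the empty libraries and 53976 to 57093 in the Wnt5a libraries. Of these, 1 passed the test (Scg2, log2 difference -0.73, limma adjusted p = 0.012), and 10 of 11 had lower means in Wnt5a cells. Of the 5 fibroblast markers listed, 4 were below 10 in every library, including the collagens Col1a2 and Col3a1, at or near 0. Dcn made up nearly all of the fibroblast sum of 353 to 604 in empty and 244 to 248 in Wnt5a libraries. The leukocyte markers Cd3e and Csf1r and the endothelial marker Cdh5 were also at or near 0. The 4 leukocyte markers listed summed to at most 15.3 in any library. Of the 4 lung epithelium markers listed, the airway marker Scgb1a1 was at or near 0. Foxj1 (21.8 to 24.2), Ager (10.9 to 14.9) and Sftpc (5.15 to 12.5) were detected in every library. Vwf was the exception among 3 endothelial markers listed, at 2330 to 3205 in empty and 2002 to 2300.5 in Wnt5a libraries. The part of these markers in the results below was not tested.

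Neat1 was the member with the widest difference. Its value was 289.9, 352 and 415 (lowest, median and highest) in the 8 empty samples and 644, 728 and 778 in the 8 Wnt5a samples. Every Wnt5a sample lay above every empty sample. The library values were 305 and 402 in empty A and B and 755 and 684 in Wnt5a A and B, which rest on 1107, 1577, 3214 and 2919 reads. Exact Poisson 95% intervals, which cover counting error only, ran from 382 to 422 for the higher empty library and from 660 to 709.6 for the lower Wnt5a library. The mean was 353 ± 68.1 (SD, n = 2) in empty and 719.5 ± 49.7 (SD, n = 2) in Wnt5a cells, a log2 difference of 1.04 (SE 0.14), or 2.05-fold. The A pair of libraries differed 2.47-fold and the B pair 1.70-fold. In bulk RNA, a change in the number of cells that express a gene and a change in RNA per cell cannot be told apart.

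The libraries of one group also differed from each other in Neat1. Empty A was lower than empty B by 0.39 on the log2 scale. Of the 4926 genes whose mean level was within 2-fold of that of Neat1, 96.3% had a smaller gap between the empty libraries. The Wnt5a libraries differed by 0.14, a gap wider than that of 69.0% of the same genes. The order of the Wnt5a libraries in Neat1 was not their order in Wnt5a. Library A held the lower Wnt5a value (1049, against 1509 in library B) and the higher Neat1 value.

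Malat1 was also higher in Wnt5a cells, by less. Its value was 1151, 1399 and 1607 in the empty samples and 1727.5, 1913 and 2093 in the Wnt5a samples, and the groups did not overlap. By library it was 1553 and 1239 in empty A and B and 1785 and 2016 in Wnt5a A and B. The means were 1396 ± 222 (SD, n = 2) and 1900.5 ± 164 (SD, n = 2), a log2 difference of 0.45 (SE 0.12), or 1.37-fold. The difference rested unevenly on the libraries, at 1.15-fold in the A pair and 1.63-fold in the B pair. Leaving out empty library B took it to 0.29.

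Within each group the RNAs ran in opposite order over the libraries. Empty B held more Neat1 and less Malat1 than empty A, and Wnt5a A held more Neat1 and less Malat1 than Wnt5a B. The gap between the empty libraries in Malat1, 0.33 on the log2 scale, was wider than that of 95.2% of 2543 genes of similar level. Neat1 per 100 Malat1 was 19.7 in empty A, 32.4 in empty B, 42.3 in Wnt5a A and 33.9 in Wnt5a B. The libraries of both groups did not overlap in this ratio, but empty B and Wnt5a B lay close together. Their samples did overlap, at 30.1 to 35.8 in empty and 32.1 to 36.9 in Wnt5a samples 5 to 8. The ratio thus differed widely between the A libraries and little between the B libraries.

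**Figure D1:**
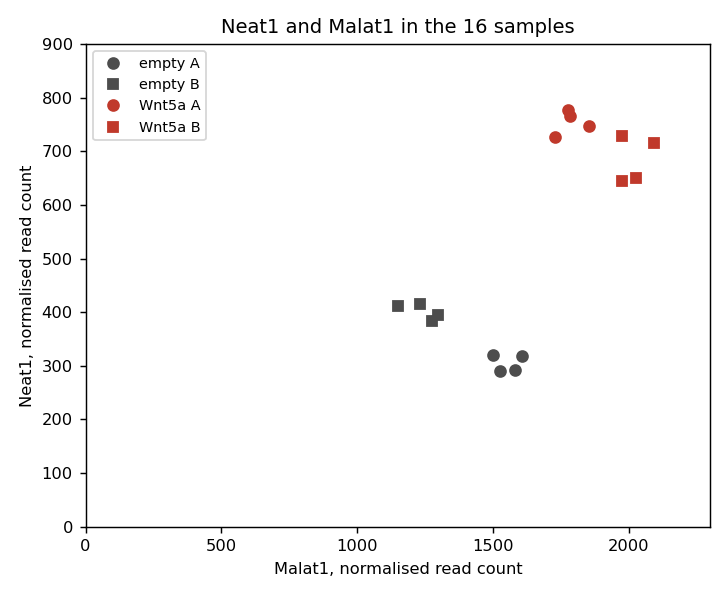
Normalised read count of Neat1 (vertical axis) against that of Malat1 (horizontal axis) in each of the 16 deposited samples, with the group by colour and the library by symbol. In Neat1 the lowest Wnt5a sample is at 644 and the highest empty sample at 415, and within each group the library with more Neat1 has less Malat1.

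The 7 protein-coding genes differed far less between the groups than Neat1, with log2 differences from -0.11 to 0.09 and a median of 0.04. SFPQ, an RNA-binding protein that holds long Neat1 in the paraspeckle, came from one of the most abundant transcripts among the members. Sfpq was 5745, 6031 and 6378 in the empty samples and 6345, 6487 and 6547 in the Wnt5a samples. The samples overlapped, although both Wnt5a libraries (6510 and 6420) lay above both empty libraries (5807 and 6312). The log2 difference was 0.09 (SE 0.08), 0.16 for the A pair and 0.02 for the B pair of libraries.

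NONO forms a dimer with SFPQ. Nono was 5108, 5449 and 5784 in the empty samples and 5669, 5765 and 5899 in the Wnt5a samples, which overlapped, with a log2 difference of 0.09 (SE 0.09). Here too the gap was wider between the A libraries (0.15) than between the B libraries (0.03). Sfpq and Nono kept nearly the same ratio, 1.10 to 1.14 Sfpq per Nono in the 4 libraries. Pspc1, the least abundant of these relatives, was 338, 359 and 422 in the empty samples and 345, 369 and 386 in the Wnt5a samples. Its groups overlapped and its log2 difference was 0.01 (SE 0.08).

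RBM14, a protein with prion-like stretches that bridges paraspeckle components, was the only member with a lower mean in Wnt5a cells, a direction that reversed when the median of its stretch of chromosome 19 was subtracted (below, 0.21). Rbm14 was 866, 897 and 925 in the empty samples and 790.2, 815 and 883 in the Wnt5a samples. Both Wnt5a libraries (816 and 840.2) lay below both empty libraries (890.2 and 899), while the samples overlapped. The log2 difference was -0.11 (SE 0.07), -0.13 between the A and -0.10 between the B libraries. HNRNPK, the factor that favours the long isoform, came from the most abundant transcript of the 9. Hnrnpk was 7697, 8188 and 8738 in the empty samples and 8099, 8430 and 8769 in the Wnt5a samples, with overlap in both samples and libraries and a log2 difference of 0.04 (SE 0.09).

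The cleavage factor genes, whose products favour the short isoform, also overlapped between the groups. Nudt21 was 799, 844 and 975 in the empty samples and 842, 888 and 952 in the Wnt5a samples, a log2 difference of 0.04 (SE 0.09). Cpsf6 was 1443, 1565 and 1698 in the empty samples and 1569, 1611 and 1684 in the Wnt5a samples, a log2 difference of 0.05 (SE 0.08). The standard errors of 0.07 to 0.09 limit what these libraries can show of small differences in the proteins' transcripts.

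**Figure D2:**
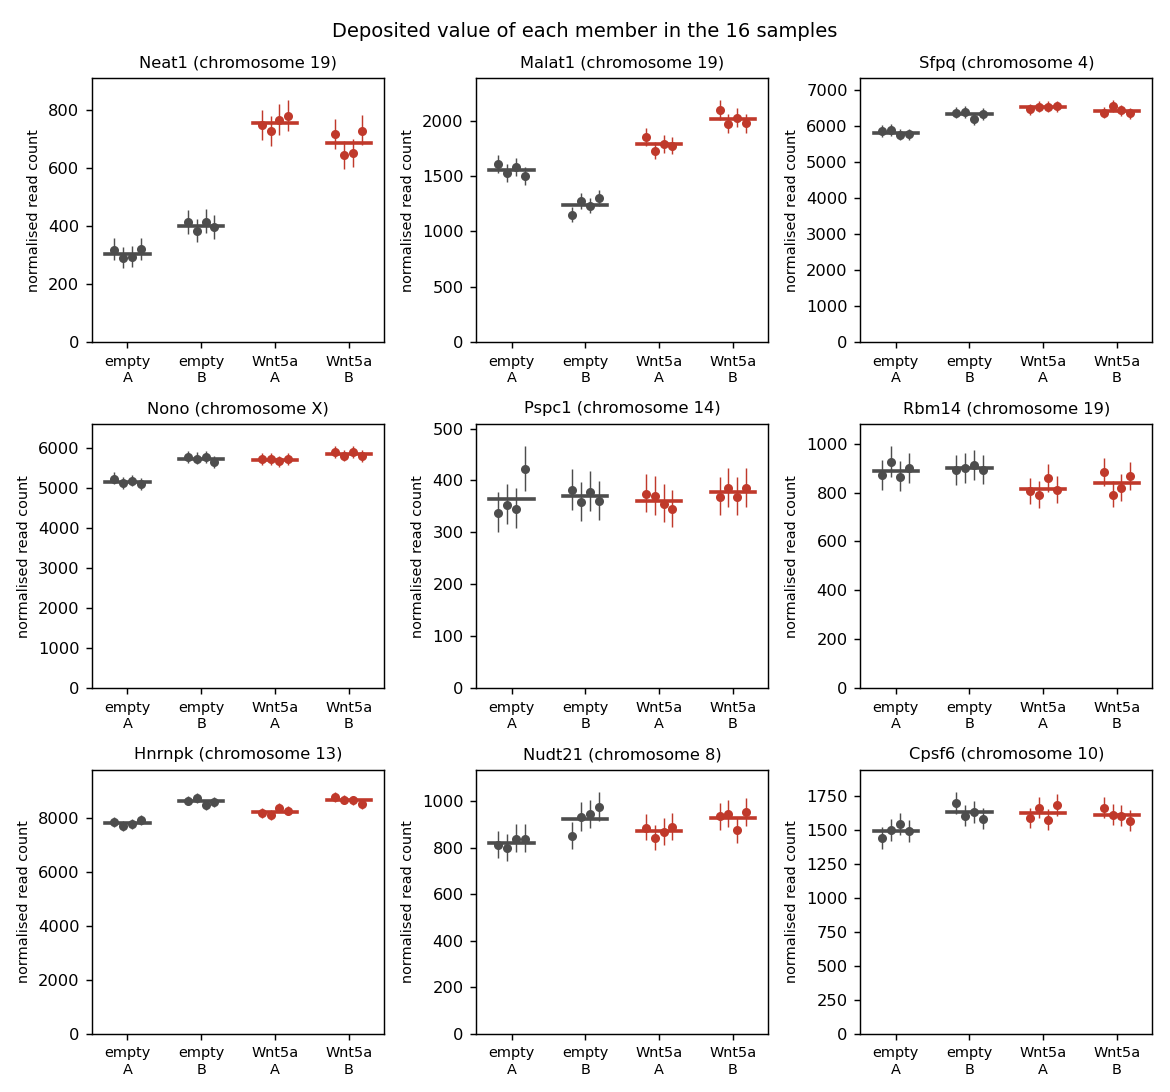
Normalised read count (vertical axes, from 0) of each of the 9 genes in the 16 samples, grouped by library. Points are samples with exact Poisson 95% intervals and horizontal bars are library means. Over the 16 samples the groups separate in Neat1 and Malat1, and overlap in the other 7 genes. Samples of 1 library differ by hardly more than counting noise, and the share of all genes that separate over samples was not taken. Nothing is therefore read from this separation. By library, 3 of 9 members lie above and 1 below in Wnt5a cells, beside 22.7% and 21.5% of all genes.

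The small positive differences of the protein-coding genes depended on single libraries of both groups. In the empty group library B was higher than library A in 7 of the 7 protein-coding genes, against 5 of 7 in the Wnt5a group. Without empty library A their median log2 difference was -0.01, with 2 of 7 above 0, and without empty library B it was 0.12. Without Wnt5a library B the median was 0.01, with 4 of 7 above 0, and without Wnt5a library A it was 0.08. Over all 9 members, 1 was called by limma (Neat1), where 2.06% of all genes tested were called. Which members were called depended on the setting. With no filter on low values (146 of 17655 genes called), or with stretch medians subtracted (182 of 12357), no member was called. With chromosome medians subtracted (206 of 12357) it was Rbm14 alone. By DESeq2 (538 of 12357) and with the replicate block (2095 of 12357), Malat1 was called beside Neat1. With the 16 samples counted separately, Sfpq, Nono and Rbm14 were called as well, among 4377 of 12357 genes. That setting treats samples that differ by hardly more than counting noise as replicates. Both Wnt5a libraries lay above both empty libraries in 3 of 9 members (Neat1, Malat1 and Sfpq), as they did in 22.7% of all genes. They lay below in 1 of 9 (Rbm14), as in 21.5% of all genes. As the genes were selected on this same contrast, nothing is read from these counts.

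**Figure D3:**
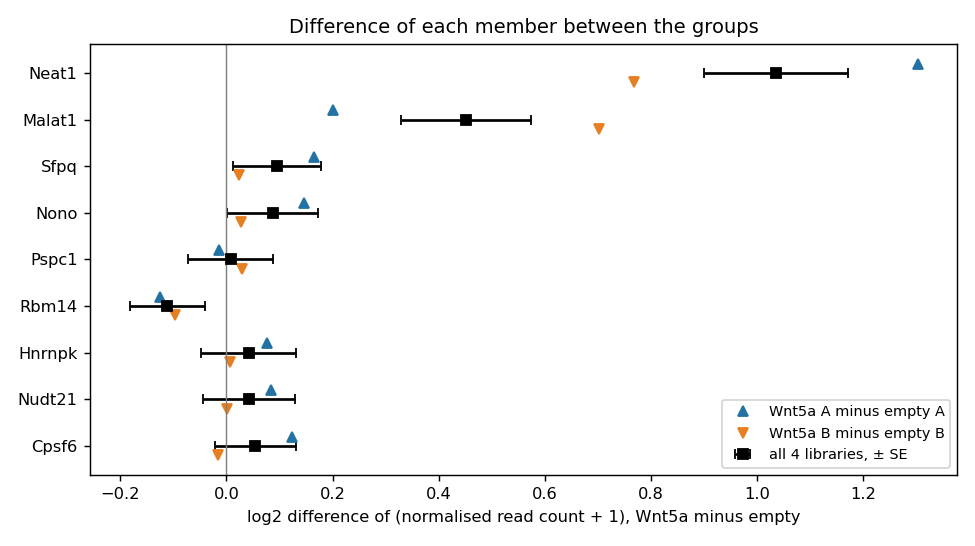
Log2 difference of (normalised read count + 1), Wnt5a minus empty (horizontal axis), for each of the 9 genes. Squares are the estimate over all 4 libraries with its standard error, and triangles show the A pair and the B pair of libraries. Neat1 lies at 1.04 and Malat1 at 0.45, and the protein-coding genes between -0.11 and 0.09.

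Levels can be compared between genes only per length of transcript. Each level was divided by the length in kilobases of the gene's longest protein-coding or lincRNA transcript in GENCODE M21. The transcripts present in these cells were not measured, so close orders rest on this choice. The mature ends of Malat1 and long Neat1 lack a poly(A) tail. Oligo-dT selection may therefore understate their levels beside those of the protein-coding genes, by an amount not measured. In empty cells the level was 2761 ± 192 for Hnrnpk, 2127 ± 159 for Nono and 1749 ± 103 for Sfpq (SD, n = 2). Hnrnpk lay above Nono and Nono above Sfpq in each library. Next came Rbm14 (255 ± 1.80), Cpsf6 (239.5 ± 14.8), Malat1 (199.9 ± 31.8) and Nudt21 (174 ± 14.6). Of these neighbours the libraries of Malat1 and Nudt21 overlapped, and those of Cpsf6 (229 and 250.0) lay close to both Rbm14 and Malat1. Pspc1 was lower, at 89.2 ± 0.893. Neat1 has no single value per length. It was 17.0 ± 3.28 per kilobase in empty and 34.6 ± 2.39 in Wnt5a cells if all reads came from the long isoform, and 118 ± 22.7 and 240 ± 16.6 if all came from the short one. Malat1 was 272 ± 23.5 per kilobase in Wnt5a cells, above the second of these Neat1 values by a small margin in Wnt5a A (256 against 251) and a wider one in Wnt5a B (289 against 228). The order of the protein-coding genes was the same in Wnt5a cells except that Cpsf6 (249 ± 1.65) stood above Rbm14 (236 ± 4.90).

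The members with the 3 differences furthest from 0 (Neat1, Malat1 and Rbm14) lie on chromosome 19, and the genes around them differed between the groups as well. The 409 other tested genes of chromosome 19 had a median log2 difference of 0.36, and 13.2% of the chromosome's genes other than the members were called, against 2.06% of all genes. The medians of the other chromosomes that hold members (4, 8, 10, 13, 14 and X) lay between -0.01 and 0.01. Chromosome 19 was not uniform. A run of 7 neighbouring genes from B4gat1 to Pacs1, all at 7.99 or less in the empty libraries, had a median log2 difference of 5.16. This run and the stretches on either side of it were picked out after their values were seen, and gene order is that of RefSeq (GRCm38.p6). The 52 tested genes before the run had a median of -0.32, with 7 of 52 higher in Wnt5a cells. The 350 after it had a median of 0.38, with 326 of 350 higher. In that longer stretch the median was 0.39 between the A and 0.37 between the B libraries, and the libraries of 1 group differed by a median of -0.01 (empty) and 0.01 (Wnt5a).

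Against these neighbours the members read differently. Neat1, in the longer stretch, stood above most of it: 6 of its 350 other genes had a larger log2 difference. Malat1 lay within it, with 112 of 350 above. Rbm14, in the shorter stretch, had a less negative difference than most of the genes around it, with 9 of 52 above. With the median of each chromosome subtracted, the log2 difference was 0.68 for Neat1, 0.09 for Malat1 and -0.47 for Rbm14, with Rbm14 now among the genes called and Neat1 no longer. With the medians of the stretches subtracted instead, these values were 0.66, 0.07 and 0.21, so that Rbm14 changed sign and Malat1 was near 0. The part of this difference along chromosome 19 in the values of the 3 genes was not tested.

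**Figure D4:**
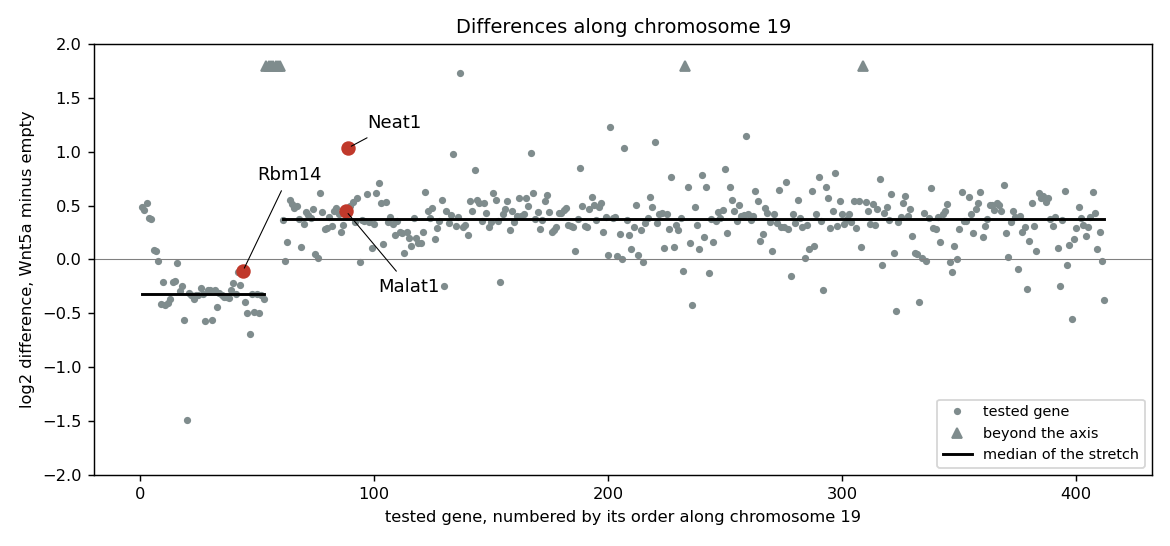
Log2 difference, Wnt5a minus empty (vertical axis), of the 412 tested genes of chromosome 19 in RefSeq order (horizontal axis). Horizontal lines are the medians of the stretches before and after a run of 7 genes, at -0.32 and 0.38, and triangles are genes beyond the axis. Malat1 lies near the line of its stretch, Neat1 above it, and Rbm14 above the lower line.

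The same held for the nearest genes. The 5 tested genes on either side of the Neat1 and Malat1 pair had log2 differences from -0.02 to 0.57 with a median of 0.44, and 9 of 10 were higher in Wnt5a cells. None of the 10 passed limma's test, the nearest being Pola2, a subunit of DNA polymerase alpha (0.57, limma adjusted p = 0.053), and Tigd3 (0.53, limma adjusted p = 0.068). Frmd8 (0.50) was below Neat1 in its difference. The protease gene Capn1 was the exception in sign, at -0.02. Of the 3 genes on either side of Rbm14, all 6 had lower means in Wnt5a cells, from -0.69 for Actn3, a muscle actinin, to -0.12 for the splicing regulator Rbm4b, and 0 of 6 passed the test.

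Genes whose levels over the 4 libraries ran most like those of Neat1 were sought among all genes tested, by the root mean square distance between log2 values centred on each gene's mean. The closest were Gcnt1, a glycosyltransferase gene (distance 0.021), Homer3, a scaffold protein gene (0.043), Slc16a11, a transporter gene (0.049), Shmt1, an enzyme gene of folate metabolism (0.057), and Bcl6b, a transcriptional repressor gene (0.059). Gcnt1 was 36.4 and 48.9 in empty A and B and 90.2 and 84.9 in Wnt5a A and B, which is the library order of Neat1. Of the 5, Gcnt1 is on chromosome 19, Homer3 on chromosome 8 and the other three on chromosome 11, where genes had a median of 0.17 on the log2 scale. The likeness is over 4 libraries only and is given as a description.

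Other genes of the same bodies were examined as lists. Of all genes tested, limma called 2.06%. The lists here and below are short, so their counts of calls are not read as results. Of 31 other paraspeckle proteins, 29 were tested and 0 passed limma's test, with 3 of 29 at an unadjusted p under 0.05, a cut that 16.1% of all genes tested met. By edgeR 0 and by DESeq2 1 (Cpsf7) passed. The median log2 difference was 0.08 and 23 of 29 were higher, beside 0.00 and 50.7% over all genes. Cpsf7, the partner of NUDT21 in the cleavage factor that can take the place of CPSF6, had the largest positive difference. It was 573 ± 44.5 in empty and 770.4 ± 33.6 in Wnt5a cells (SD, n = 2), which is 0.43 apart on the log2 scale (limma adjusted p = 0.068), and it too is on chromosome 19. Celf6, an RNA-binding protein of neurons, had the most negative difference, at 369 ± 30.3 and 317 ± 18.7 (-0.22, limma adjusted p = 0.344).

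Of 26 nuclear speckle proteins, 0 passed limma's, edgeR's or DESeq2's test, with 1 of 26 at an unadjusted p under 0.05 in limma, and the median was 0.07 with 21 of 26 higher. The splicing kinase gene Clk4 was at 344 ± 100.9 and 448 ± 41.3 (0.41, limma adjusted p = 0.365), and Sf3b1, the splicing factor gene, at 4692 ± 203 and 4274 ± 55.7 (-0.13, limma adjusted p = 0.479). Clk4 is on chromosome 11 and Sf3b1 on chromosome 1, whose genes had medians of 0.17 and -0.17. As with the members, the lists depended on single libraries. The summed value of the speckle genes was 57377 in empty A and 63013 to 64658 in the other three libraries, and that of the paraspeckle genes 48183 in empty A and 52436 to 55924 in the others. Without empty A, the medians were -0.02 for the paraspeckle list (10 of 29 higher) and -0.03 for the speckle list (10 of 26 higher). Without empty B they were 0.16 and 0.17. The same medians were 0.10 and 0.12 without Wnt5a A, and 0.04 and 0.05 without Wnt5a B.

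Of 20 factors of 3′ end processing, 1 rose by limma's test. This was Cstf2t, a paralog of the cleavage stimulation factor subunit that binds RNA downstream of the poly(A) site, from 460 ± 15.0 to 631 ± 22.6 (log2 difference 0.46, SE 0.08, limma adjusted p = 0.043). Cstf2t is also on chromosome 19. It no longer passed with the chromosome or stretch medians subtracted, with a minimum value of 50 or none, or without either Wnt5a library. The list's median was 0.06, with 15 of 20 higher. It was 0.02 without empty library A and 0.10 without empty library B.

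**Figure D5:**
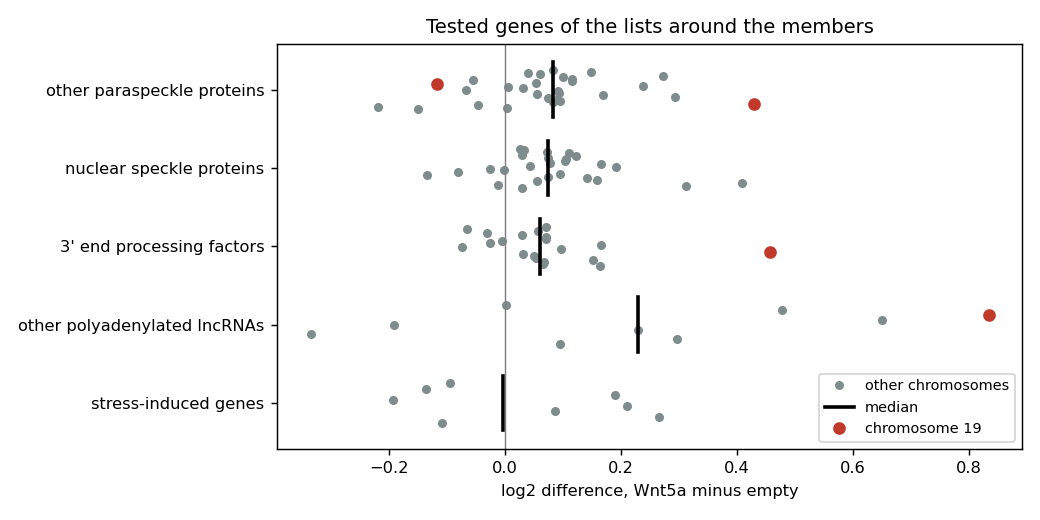
Log2 difference, Wnt5a minus empty (horizontal axis), of the tested genes of 5 lists around the members. Each point is a gene, red points are genes of chromosome 19 and vertical bars are medians. The largest positive differences of the paraspeckle list, the 3′ end list and the long noncoding RNA list are genes of chromosome 19 (Cpsf7, Cstf2t and Snhg1). The other chromosome 19 gene of the paraspeckle list, Rbm4b, lies at -0.12.

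Among 5 genes reported as regulators of Neat1 transcription, 1 passed the test. Epas1, the hypoxia-inducible factor 2 alpha that induces Neat1 under low oxygen, fell from 471 ± 55.4 to 316 ± 9.30 (log2 difference -0.57, SE 0.10, limma adjusted p = 0.049). Its call was lost by edgeR, with a pseudocount of 0.1, with a minimum value of 50 or none, with chromosome or stretch medians subtracted, and without either Wnt5a library. Of the 5 regulators, 3 had positive and 2 negative log2 differences, from -0.57 (Epas1) to 0.42 (Trp53). The part of these regulators in the Neat1 difference was not tested. Trp53 is counted among the 3 with positive differences although it is labelled null in both groups. It still had values of 64.8 and 70.0 in empty and 84.5 and 97.3 in Wnt5a libraries. The values do not show which part of the gene the reads came from. Trp53 is on chromosome 11, whose genes had a median of 0.17.

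Of 14 other polyadenylated long noncoding RNAs, 9 were tested and 0 passed limma's test, with 2 of 9 at an unadjusted p under 0.05. Their median log2 difference was 0.23. The largest was that of Snhg1, a snoRNA host gene on chromosome 19 (0.83, limma adjusted p = 0.181), named after its value was seen. The 3 with the highest mean level were Miat, Peg13 and Firre. Miat, an abundant nuclear RNA, was at 1642 ± 259 and 1919 ± 221 (0.23, limma adjusted p = 0.467), and Peg13, an imprinted RNA, at 1597 ± 206 and 1394 ± 74.9 (-0.19, limma adjusted p = 0.447). Firre, an X-linked nuclear RNA, was at 608 ± 36.5 and 648.5 ± 9.49 (0.09, limma adjusted p = 0.665). Of 11 stress-induced genes, which include immediate early and heat shock genes, 8 were tested and 0 passed limma's test. Of the 8, 0 had an unadjusted p under 0.05, and the median was -0.00. The heat shock genes Hspa1a and Hspa1b were too low to be tested, at 0 to 1.02 in empty and 1.41 to 2.58 in Wnt5a libraries.

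Reads shared with overlapping genes could affect 3 of the members' values in either direction, because the use of strand in counting is not given. RefSeq places Zmym1 (mean value 357) over part of Sfpq, Rmi1 (411) over part of Hnrnpk, and the hardly detected Gm21992 (0.127) over Rbm14. No other listed gene overlaps Neat1, Nono, Pspc1, Nudt21 or Cpsf6, and the small RNA within the Malat1 gene is not among the genes analysed here.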

How the data were processed

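Per the submitters' processing notes, reads were processed with TopHat, Bowtie, HTSeq and DESeq2. Versions, roles, genome build and strand setting are not given in the sources used here. Each deposited file holds 1 signal value per gene, normalised by the authors. In every sample 100% of values were whole multiples of a step (tolerance 0.1), as a count divided by 1 factor per sample would be, and dividing by the step gave back the reads. Samples of a group with an index of dispersion under 1.5 (0.987 to 1.05 in 24 pairs, against 5.23 to 5.44 in 32 others) were averaged as 1 library. Genes with a mean value of at least 10 were fitted with limma 3.58.1 (R 4.3.3; lmFit, eBayes with trend) on log2(value + 1), a scale that understates changes of low genes, with Benjamini-Hochberg adjustment over 12357 genes and a threshold of 0.05. edgeR 4.0.16 and DESeq2 1.42.0 were run on the recovered reads.

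The members and all gene lists were chosen with earlier results of these data known. Genes were named by rule: the members, Wnt5a, genes of the paraspeckle, speckle and 3′ end lists that passed or were most extreme, regulators and stress genes that passed, the 3 long noncoding RNAs of highest level, neighbours, and the 5 genes most like Neat1. Cell type markers, Snhg1, Trp53, Hspa1a and Hspa1b were named outside it. The values of 1 gene under this rule are not reported here. Of the 17655 symbols, 17619 matched RefSeq (GRCm38.p6), 379 by synonym. It was used only for gene order, chromosome and overlap of genes. Transcript ends and lengths are from GENCODE M21. Coordinates are not given because the files name no build.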

Additional observations from a re-analysis of the deposited data

How the results depend on the processing

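Depth limits Neat1 and Malat1 little: the lowest library value of Neat1 rests on 1107 reads. In both genes the exact Poisson 95% intervals of the 2 libraries of a group did not overlap, so the spread between libraries is the wider error. That does not hold for every member. In Pspc1 and Rbm14 the intervals overlapped within each group, as at 345 to 384 and 351 to 389 for Pspc1 in empty A and B. The count of 254 genes called was 4377 with the 16 samples counted separately, 538 by DESeq2, 102 with a minimum value of 50, 146 with no filter, 2095 with the replicate block, and 138 to 1098 with 1 library left out. The share of calls that were higher was 67.3%, and 50.1% (samples separately), 58.2% (DESeq2), 56.8% (chromosome medians subtracted), 58.8% (minimum of 50), 89.0% (no filter), 51.2% (replicate block) and 50.5% (without empty B). The Neat1 difference was 0.68 with chromosome medians and 0.66 with stretch medians subtracted, 1.02 to 1.04 in the 9 other alternatives and 0.84 to 1.23 with 1 library left out. In the 9 alternatives without subtraction, some of which leave an estimate as it is by construction, Malat1 was 0.44 to 0.47 and Rbm14 -0.12 to -0.09, and no member changed sign. With 1 library left out, Malat1 was 0.29 to 0.61, Sfpq 0.03 to 0.15, Nono 0.01 to 0.16 and Rbm14 -0.13 to -0.09. Pspc1, Hnrnpk, Nudt21 and Cpsf6 changed sign without 1 library or another. Paraspeckle genes called were 9 (samples separately), 1 (DESeq2), 4 (replicate block) and 0 to 2 (1 library left out). Speckle genes called were 10, 0, 2 and 0 to 2 in the same order. Factors of 3′ end processing called were 3 with samples separately, 0 with chromosome medians, stretch medians, a minimum of 50 or no filter, and 0 to 1 with 1 library left out. The stretch medians were added after the data were seen. The causes of these changes were not tested.

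Replicate numbers are shared between the groups, so library A was paired with A and B with B in the replicate block. The deviations of same-numbered libraries from their group means correlated across 12357 genes (Pearson r = 0.44, Spearman rho = 0.53), but 2 pairs do not show that the numbers pair the libraries.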
